A study of Mus musculus with 32 samples.

Results

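The homeostatic microglia signature genes followed here were 8 genes, Tmem119, Cx3cr1, Selplg, Fcrls, Olfml3, Sparc, Crybb1 and Gpr34, out of 18588 genes in the signal table. They were chosen by name, with earlier results of these data known. Their Entrez numbers were matched to RefSeq symbols, and all 8 were found. Microglia were captured with CD11b MicroBeads from the pooled forebrains of 8 to 10 female mice per library. The rTg4510 mice carry human P301L tau behind a tetracycline-responsive element together with a CaMKIIα-driven transactivator, so that mutant tau is made in forebrain neurons and not in microglia, and it can be repressed with doxycycline. WT mice were littermates with neither transgene, and their strain is labelled 129/FVB F1. Both genotypes were sampled at 2, 4, 6 and 8 months of age, and 28 libraries were kept. Each genotype had 4 of them at 2 and at 6 months and 3 at 4 and at 8 months. The remaining 4 of the 32 libraries, 1 WT and 1 rTg4510 library at each of 4 and 8 months, failed the QC of the study and were used only where all 32 libraries are named.

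Microglia in the undisturbed brain hold a characteristic set of transcripts that separates them from other macrophages and that depends on TGF-beta signals and on transcription factors such as SALL1. When microglia meet dying neurons, amyloid or aggregated protein, many of these homeostatic transcripts decline while genes of lipid handling, lysosomes and phagocytosis rise. The 8 genes have different roles. Cx3cr1 is the receptor for the neuronal chemokine fractalkine, Gpr34 is a receptor for lysophosphatidylserine, Selplg encodes the selectin ligand PSGL-1, and Fcrls encodes an Fc receptor-like scavenger receptor. Tmem119 is a membrane protein used as a microglia marker, Sparc and Olfml3 encode secreted matrix proteins, and Crybb1 encodes a beta crystallin known from the lens.

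The 8 genes lie on 5 chromosomes of the RefSeq annotation of GRCm38.p6, the build version of GRCm38 that the submitters' processing notes name. Tmem119 (chr5:113793729-113800396) and Selplg (chr5:113817798-113832528) are neighbours on the minus strand with 17401 bases between them, and Crybb1 lies on the plus strand of the same chromosome (chr5:112254563-112269585). The others are Fcrls (chr3:87250736-87263765, minus), Olfml3 (chr3:103735394-103738001, minus), Cx3cr1 (chr9:120048683-120068296, minus), Sparc (chr11:55394159-55420080, minus) and Gpr34 (chrX:13622650-13640859, plus). Exons of Cx3cr1 overlap those of Gm33858 on the other strand. Whether the counting used strand is not given in the sources used here, so Cx3cr1 signals could include reads of Gm33858, which was not analysed here.

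Promoter sequences are shown for Crybb1 and Olfml3, the members whose promoter windows held the fewest annotated exon bases. They also had the largest and the smallest mean change of the members, which was not the reason for showing them. Both windows come from RefSeq (GRCm38.p6) and run 5′ to 3′ on the strand of the gene. The Olfml3 window, chr3:103738002-103738251 on the minus strand, holds the 250 bases before the start. The Crybb1 window, chr5:112255570-112255814 on the plus strand, lies inside the outermost bounds of the gene before the start that the promoter table uses, and it ends 5 bases before that start because annotated exon bases were left out. Capitals mark matches to 7 motifs that were searched on both strands. PU.1 and other ETS factors were represented by GAGGAAGT and, within it, by the shorter GAGGAA. The short SMAD site was searched as CAGAC. The short MAF site was searched as TGCTGAC. The TATA box was searched as TATAAA. The E-box was searched as CACGTG, and the IRF element is given by its name alone.
Crybb1: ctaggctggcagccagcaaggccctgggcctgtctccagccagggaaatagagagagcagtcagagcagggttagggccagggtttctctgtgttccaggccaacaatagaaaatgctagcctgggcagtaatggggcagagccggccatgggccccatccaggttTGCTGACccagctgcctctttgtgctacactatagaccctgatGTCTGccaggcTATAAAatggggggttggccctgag
Olfml3: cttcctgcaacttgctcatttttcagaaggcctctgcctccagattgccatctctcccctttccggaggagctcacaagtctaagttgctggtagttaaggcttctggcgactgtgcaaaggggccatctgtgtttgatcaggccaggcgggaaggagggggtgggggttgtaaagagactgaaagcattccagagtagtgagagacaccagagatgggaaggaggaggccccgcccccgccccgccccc

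The Crybb1 window held TATAAA 30 bases before the start, TGCTGAC 84 bases before it and GTCTG, the reverse complement of CAGAC, 41 bases before it. None of these letters occurred in the Olfml3 window. Promoter entries were found for 5 of the 8 members, Crybb1, Olfml3, Cx3cr1, Fcrls and Sparc. TGCTGAC occurred in the windows of 2 of these 5 (Crybb1 and Sparc) and in 3.81% of 32851 promoters. CAGAC occurred in 4 of the 5 and in 42.2% of promoters, TATAAA in 2 and in 12.4%, and GAGGAA in 1 and in 23.3%. GAGGAAGT (2.44% of promoters), the IRF element (2.98%) and CACGTG (6.02%) occurred in none of the 5. Annotated exons of the gene itself covered 250 bases of the Cx3cr1 window, 238 of the Sparc window and 136 of the Fcrls window. Matches in these windows can thus lie in exons. The first bases from the Crybb1 start were found in none of its annotated transcripts. These counts describe letters in the windows and are no test of binding.

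Signals were deposited on the log2 scale after median normalization by the authors, and each of the 32 libraries had a median of 5.63. The signals were not divided by transcript length, so levels are compared within a gene only. All 8 members were well above the lowest value of a library (1.23 to 1.92), with mean signals over the 28 libraries from 7.27 (Crybb1) to 13.57 (Cx3cr1), that is above 80.5% to 99.7% of genes. The spread between libraries of a group was small for these genes, with a residual SD of 0.0995 (Gpr34) to 0.152 (Crybb1) against a median of 0.232 over all genes. All 10 microglia-defining markers were measured, and their summed signal (log2 of the sum) lay between 14.22 and 14.95 in every library. Nothing in the sources ties a library to separate cultures or cohorts beyond the pooling of animals, so p-values measure the spread between these pools.

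**Figure D1:**
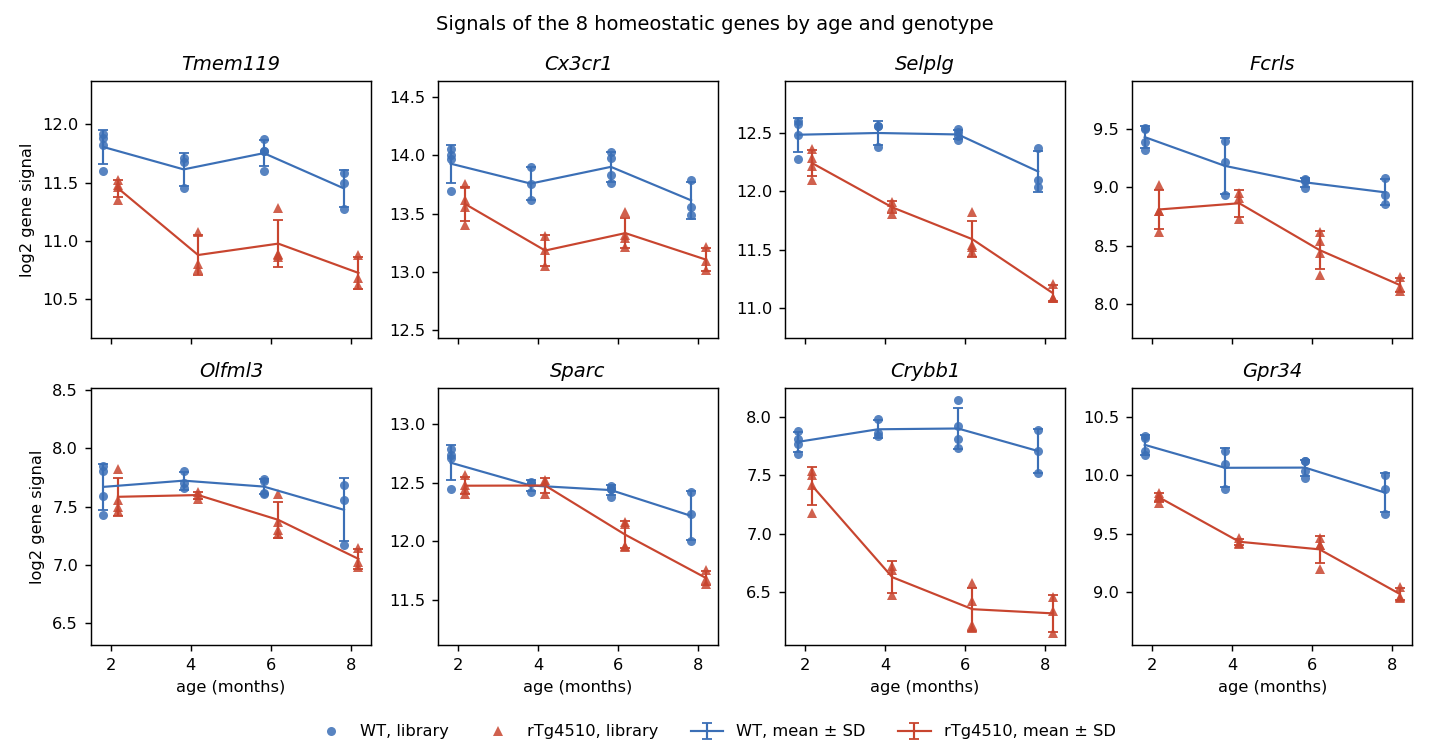
Log2 gene signal (vertical axis, the same span in each panel) of the 8 genes against age in months, with a point for each of the 28 kept libraries and lines through the means ± SD of WT (circles) and rTg4510 (triangles). The Crybb1 points separate most from 4 months on, and the points of every gene are apart at 8 months.

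rTg4510 microglia had less of the homeostatic transcripts than WT microglia, and more of the 8 genes passed the test at later ages. A gene was called a DEG at a false discovery rate (FDR) under 0.05 and a change above 1.5 fold in the limma fit to all 18588 genes. By this rule 1 of the 8 members fell at 2 months (Fcrls), 4 at 4 months and the same 4 at 6 months (Tmem119, Selplg, Crybb1 and Gpr34), and 5 at 8 months (these 4 and Fcrls). The 4 that were called at each of 4, 6 and 8 months stood beside 2.32% of all genes called lower at all 3 ages. No member rose at any age. Over all genes, 0.403%, 4.33%, 8.54% and 5.37% were called lower at 2, 4, 6 and 8 months. The median log2 change of the 8 members was -0.35, -0.60, -0.64 and -0.76 at the 4 ages, beside 0.014, -0.037, -0.035 and -0.014 for all genes. In bulk RNA, fewer cells with a transcript and less transcript per cell cannot be told apart.

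By FDR alone, without the limit of 1.5 fold, 5 members were lower at 2 months, 6 at 4 months and all 8 at 6 and at 8 months, where 1.27%, 9.1%, 14.9% and 9.78% of all genes were. Every rTg4510 library lay below every WT library for 4 members at 2 months (Tmem119, Fcrls, Crybb1 and Gpr34), 6 at 4 months (all but Fcrls and Sparc), 7 at 6 months (all but Olfml3) and 8 at 8 months. Of all genes, 3.51%, 17.5%, 14.6% and 15.5% showed that separation at the same ages.

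Crybb1 changed most. At 2 months its signal was 7.68, 7.81, 7.88 and 7.77 in WT and 7.18, 7.50, 7.54 and 7.42 in rTg4510 libraries. At 4 months it was 7.98, 7.86 and 7.84 in WT and 6.69, 6.72 and 6.47 in rTg4510 libraries. The genotypes did not overlap at either age, and the gap between the nearest libraries was much wider at 4 months. At 6 months the WT libraries had 7.92, 7.81, 8.14 and 7.73 and the rTg4510 libraries 6.58, 6.42, 6.19 and 6.22. At 8 months the values were 7.71, 7.52 and 7.89 in WT and 6.34, 6.15 and 6.46 in rTg4510. The WT values stayed near the same level over the 4 ages, while every rTg4510 library from 4 months on lay below every library of 2 months. The log2 fold change was -0.38 (SE 0.108, limma FDR 0.0402, not a DEG) at 2 months, -1.26 (SE 0.124, FDR 1.29e-07) at 4 months, -1.55 (SE 0.108, FDR 3.78e-10) at 6 months and -1.39 (SE 0.124, FDR 2.6e-08) at 8 months, or 2.92 fold at 6 months. Only 1.87% of all genes had a lower log2 change than Crybb1 at 6 months.

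Selplg, whose product binds selectins on leukocytes, platelets and vessels, fell from 4 months on. Its signal was 12.56, 12.56 and 12.38 in WT and 11.87, 11.91 and 11.81 in rTg4510 at 4 months. At 6 months it was 12.53, 12.51, 12.47 and 12.44 in WT and 11.48, 11.52, 11.82 and 11.54 in rTg4510. At 8 months it was 12.04, 12.10 and 12.37 in WT and 11.09, 11.09 and 11.21 in rTg4510. The groups overlapped at 2 months and at no later age. The log2 fold change was -0.24 (SE 0.0837, limma FDR 0.103) at 2 months and -0.64 (SE 0.0966, FDR 3.39e-05), -0.90 (SE 0.0837, FDR 2.48e-08) and -1.04 (SE 0.0966, FDR 4.38e-08) at 4, 6 and 8 months. Neutrophils also carry Selplg, and the summed signal of 8 neutrophil markers was lower in rTg4510 libraries too, at 7.45 to 8.16 against 9.06 to 10.33 in WT at 6 months and 7.79 to 9.09 against 10.01 to 10.37 at 8 months. Of these 8 markers, 7 fell at 6 months and 6 at 8 months, and their part in the Selplg result was not tested.

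Tmem119, the neighbour of Selplg, fell at 4, 6 and 8 months. At 2 months its signal was 11.60, 11.92, 11.82 and 11.88 in WT and 11.35, 11.46, 11.52 and 11.48 in rTg4510. At 4 months it was 11.68, 11.71 and 11.45 in WT and 10.80, 10.76 and 11.08 in rTg4510. The later ages looked like 4 months, with 11.60 to 11.87 in WT against 10.86 to 11.28 in rTg4510 at 6 months and 11.27 to 11.58 against 10.62 to 10.88 at 8 months. The log2 fold changes were -0.35 (SE 0.104, limma FDR 0.0465, not a DEG), -0.74 (SE 0.12, FDR 7.75e-05), -0.78 (SE 0.104, FDR 3.86e-06) and -0.72 (SE 0.12, FDR 7.88e-05). Coro1c, which codes for an actin-binding coronin and is next to Selplg on its other side, rose by 1.34, 1.45 and 1.60 on the log2 scale at 4, 6 and 8 months (limma FDR 1.26e-10, 1.78e-12 and 8.12e-12).

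Gpr34, a lysophospholipid receptor, had the tightest groups. Its signal was 10.21, 10.32, 10.34 and 10.17 in WT and 9.76, 9.85, 9.81 and 9.82 in rTg4510 at 2 months. At 4 months it was 10.10, 10.21 and 9.88 in WT and 9.42, 9.46 and 9.41 in rTg4510. Later it was 10.06 ± 0.0689 (n = 4) against 9.36 ± 0.114 (n = 4) at 6 months and 9.85 ± 0.166 (n = 3) against 8.98 ± 0.0457 (n = 3) at 8 months, as mean ± SD. No rTg4510 library reached a WT library at any of the 4 ages. The log2 fold changes were -0.45 (SE 0.0703, limma FDR 3.11e-04, 1.37 fold and so not a DEG), -0.63 (SE 0.0812, FDR 4.46e-06; -0.56 and not a DEG without WT replicate 2), -0.70 (SE 0.0703, FDR 7.09e-08) and -0.87 (SE 0.0812, FDR 4.73e-08). Gpr82, the receptor gene beside Gpr34 on the X chromosome, was not a DEG at any age, with a log2 fold change of -0.44 (limma FDR 0.0827) at 6 months.

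Fcrls was the only member called at 2 months. Its signal was then 9.32, 9.50, 9.51 and 9.39 in WT and 8.62, 8.80, 9.02 and 8.80 in rTg4510, and the log2 fold change was -0.62 (SE 0.0947, limma FDR 2.86e-04). At 4 months the WT libraries had 9.40, 9.22 and 8.93 and the rTg4510 libraries 8.91, 8.73 and 8.95. The groups overlapped there, 1 WT library lay among the rTg4510 libraries, and the log2 fold change was -0.32 (SE 0.109, FDR 0.0394, not a DEG). At 6 and 8 months it was -0.58 (SE 0.0947, FDR 5.47e-05, 1.49 fold and just under the limit) and -0.79 (SE 0.109, FDR 8.58e-06, a DEG). The call at 2 months rested on rTg4510 replicate 1, the lowest library, since without it the log2 fold change was -0.55 and no member was called at that age. At 6 months Fcrls became a DEG without WT replicate 1, rTg4510 replicate 3 or rTg4510 replicate 4 (-0.60, -0.60 and -0.63). Fcrl1, the neighbour of Fcrls and a relative in the same receptor family, fell at 4, 6 and 8 months, with log2 fold changes of -1.39, -1.56 and -1.97 (limma FDR 0.00105, 4.48e-05 and 1.97e-05) from a low signal.

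Cx3cr1, the fractalkine receptor, was lower at every age but was never a DEG. At 6 months its signal was 13.76, 14.03, 13.98 and 13.83 in WT and 13.21, 13.29, 13.51 and 13.32 in rTg4510. At 4 months it was 13.75, 13.90 and 13.62 in WT and 13.19, 13.05 and 13.31 in rTg4510. The groups were apart at both ages, and the changes of 1.49 fold at 4 months and 1.48 fold at 6 months stayed just under the limit. The log2 fold changes were -0.35 (SE 0.0974, limma FDR 0.0367), -0.57 (SE 0.112, FDR 6.04e-04), -0.57 (SE 0.0974, FDR 9.19e-05) and -0.51 (SE 0.112, FDR 0.00167) at 2, 4, 6 and 8 months. The call depended on single libraries: without WT replicate 4 or rTg4510 replicate 4 Cx3cr1 became a DEG at 4 months (-0.64 and -0.63), and without WT replicate 1, WT replicate 4 or rTg4510 replicate 3 it became one at 6 months (-0.61, -0.59 and -0.62).

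In the deposited signals the secreted matrix proteins had the smallest mean changes of the 8 members. For Sparc this depended on the scaling, since after quantile normalization its log2 change was -0.47, -0.54, -0.95 and -1.06 at 2, 4, 6 and 8 months. Sparc had 12.50, 12.51 and 12.42 in WT and 12.40, 12.52 and 12.51 in rTg4510 at 4 months, and the log2 fold change of 0.00 had a 95% confidence interval from -0.19 to 0.19. At 6 months it was 12.45, 12.45, 12.38 and 12.47 in WT and 11.96, 11.95, 12.15 and 12.16 in rTg4510. At 8 months it was 12.22 ± 0.214 (SD, n = 3) in WT and 11.63, 11.68 and 11.75 in the rTg4510 libraries. The groups thus overlapped at 4 months and were apart at 6 and 8 months, where the log2 fold changes were -0.39 (SE 0.0779, limma FDR 5.05e-04, not a DEG) and -0.53 (SE 0.09, FDR 1.05e-04, 1.45 fold, not a DEG). Without WT replicate 2 the change at 8 months was -0.64 and Sparc was a DEG. Vessel cells also make Sparc, and the summed signal of 8 endothelial markers overlapped between genotypes at both ages, at 7.18 to 7.58 in rTg4510 against 7.28 to 8.02 in WT at 6 months and 7.87 to 8.41 against 8.15 to 9.10 at 8 months. Of these markers 3 fell and 1 rose at 6 months, and 1 fell and 1 rose at 8 months. Their part in the Sparc result was not tested.

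Olfml3 had 7.56, 7.17 and 7.69 in WT and 7.03, 6.98 and 7.15 in rTg4510 at 8 months. The lowest WT library was only just above the highest rTg4510 library. Its log2 fold change was -0.09 (SE 0.107, limma FDR 0.79), -0.12 (SE 0.123, FDR 0.528), -0.29 (SE 0.107, FDR 0.0438) and -0.42 (SE 0.123, FDR 0.0154) at 2, 4, 6 and 8 months, with 95% confidence intervals from -0.31 to 0.14 at 2 months and from -0.67 to -0.16 at 8 months. It was not a DEG at any age.

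**Figure D2:**
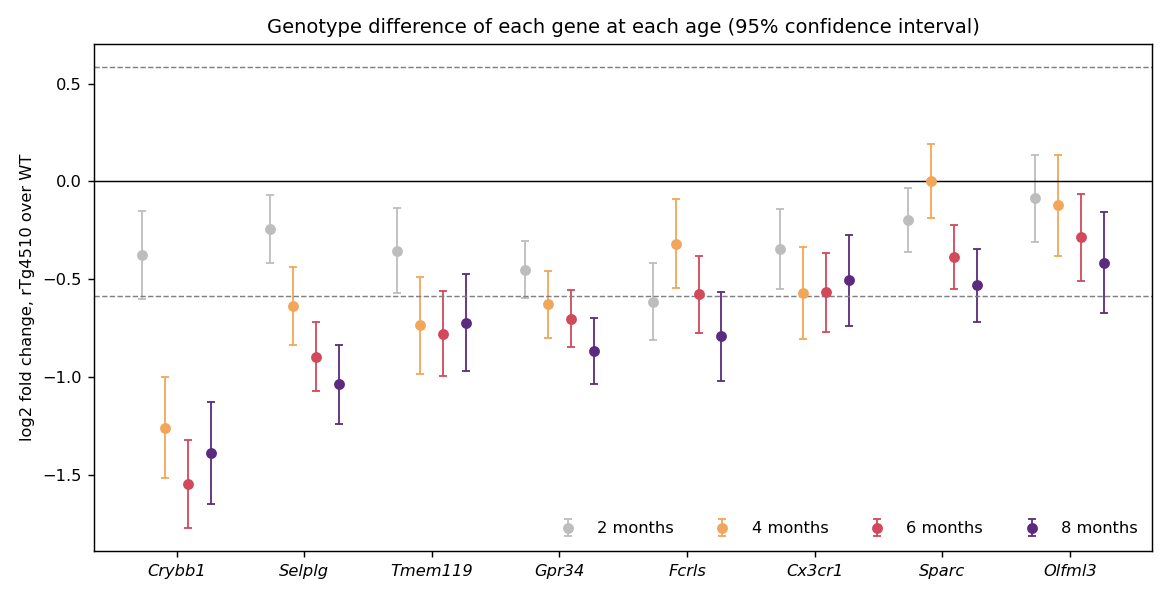
Log2 fold change of rTg4510 over WT (vertical axis) for each gene at 2, 4, 6 and 8 months, with the 95% confidence interval of the limma fit as bars and the 1.5-fold limits as dashed lines. The genes are in order of their mean change over 4, 6 and 8 months, from Crybb1 (-1.40) to Olfml3 (-0.27).

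The members did not change by equal amounts. Over 4, 6 and 8 months the mean log2 change was -1.40 for Crybb1, -0.86 for Selplg, -0.75 for Tmem119, -0.73 for Gpr34, -0.56 for Fcrls, -0.55 for Cx3cr1, -0.31 for Sparc and -0.27 for Olfml3. For each of the 28 pairs the difference of the log2 signals within a library was compared between genotypes. This was done by a two-sided exact permutation test within age, with p-values adjusted over the 28 pairs. The ages of 4, 6 and 8 months were chosen for it with results of these data known. The test passed for 24 pairs, and the smallest p that the 28000 permutations can give, 7.14e-05, was reached by all pairs of Crybb1 (adjusted p = 1.54e-04). Crybb1 differed from Selplg, the next in order, by 0.542 and from Olfml3 by 1.125 on the log2 scale.

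The 4 pairs that did not pass were Tmem119 with Selplg (difference 0.111, exact permutation adjusted p = 0.144), Tmem119 with Gpr34 (-0.013, adjusted p = 0.862), Cx3cr1 with Fcrls (0.014, adjusted p = 0.862) and Olfml3 with Sparc (0.031, adjusted p = 0.52). These pairs are not thereby shown to change alike. The difference between Tmem119 and Selplg was -0.10, 0.12 and 0.31 at 4, 6 and 8 months, that between Cx3cr1 and Fcrls -0.25, 0.01 and 0.29, that between Tmem119 and Gpr34 -0.11, -0.08 and 0.14, and that between Olfml3 and Sparc -0.12, 0.10 and 0.12. In order of the mean change, then, Selplg and Tmem119, Tmem119 and Gpr34, Fcrls and Cx3cr1, and Sparc and Olfml3 were neighbours that could not be separated. Tmem119 and Fcrls differed by 0.184 with an adjusted p of 0.0456 in the exact permutation test, and 14 of the 20 tests that left out 1 library lost that call. With all 4 ages pooled 20 pairs passed, and with all 32 libraries 18 did. Both alternatives lost Tmem119 with Fcrls, Selplg with Fcrls, Selplg with Gpr34 and Fcrls with Gpr34. Quantile normalization removed the calls of Cx3cr1 with Gpr34 (exact permutation adjusted p = 0.838) and of Fcrls with Sparc (0.0803), and both differences changed sign. It also removed those of Cx3cr1 with Sparc (0.122) and of Selplg with Crybb1 (0.341).

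The change of the genotype difference between ages was tested as an interaction. Only Crybb1 passed, with a log2 difference of -0.88 (SE 0.164, limma FDR 0.0019) from 2 to 4 months, where 0.893% of all genes were called in that direction. No member passed from 4 to 6, from 6 to 8 or from 4 to 8 months. In these comparisons limma called 0.118%, 0% and 0.102% of all genes lower. The nearest to the threshold were Selplg from 2 to 4 months (-0.39, SE 0.128, limma FDR 0.0673) and Sparc from 4 to 8 months (-0.53, SE 0.127, limma FDR 0.0899). Without WT replicate 2 of 8 months 1 member was called from 4 to 8 months.

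With age, WT and rTg4510 libraries both tended to lower values. In WT all 8 members had a lower mean at 8 than at 2 months, with a median log2 change of -0.34 beside -0.037 for all genes, and 0 members were DEGs, where 0.737% of all genes were called lower. By limma FDR alone, which 3.39% of all genes passed in that direction, 4 of them were lower with age in WT, Sparc (-0.46, SE 0.0842, FDR 0.00517), Gpr34 (-0.41, SE 0.076, FDR 0.00543), Fcrls (-0.48, SE 0.102, FDR 0.0127) and Selplg (-0.32, SE 0.0904, FDR 0.0498). Crybb1 was the member that moved least in WT, by -0.08 (SE 0.116, FDR 0.767).

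In rTg4510 6 members were DEGs between 2 and 8 months, where 4.78% of all genes were called lower. Selplg fell by 1.11 (SE 0.0904, limma FDR 1.47e-08), Crybb1 by 1.09 (SE 0.116, FDR 5.8e-07), Gpr34 by 0.82 (SE 0.076, FDR 8.16e-08), Sparc by 0.79 (SE 0.0842, FDR 6.05e-07), Tmem119 by 0.72 (SE 0.112, FDR 6.28e-05) and Fcrls by 0.65 (SE 0.102, FDR 7.61e-05) on the log2 scale. Cx3cr1 (-0.48, FDR 0.00206) and Olfml3 (-0.53, FDR 0.00192) stayed under the 1.5-fold limit. Between 2 and 4 months only Crybb1 was a DEG in rTg4510 (-0.78, SE 0.116, limma FDR 8.16e-05), where 2.36% of all genes were called lower. Between 4 and 6 months 0 members were DEGs by limma, where 0.506% of all genes were called lower, and between 6 and 8 months 0 members were, where 0% of all genes were. By FDR alone, which 1.05% of all genes passed in that direction, Sparc was lower between 4 and 6 months (-0.42, SE 0.0842, limma FDR 0.0102). Animals of different ages were different animals, and no source used here says whether ages were processed together, so age and processing date cannot be told apart.

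The size of these changes depended on how the libraries were put on 1 scale. The deposited signals share a median, but their 95th and 99th percentiles were on average higher in rTg4510 at each age. The 99th percentile of a library averaged 11.89, 11.87, 11.83 and 11.77 in WT and 12.17, 12.39, 12.49 and 12.35 in rTg4510 at 2, 4, 6 and 8 months, and the 10 strongest genes took 39.0% to 46.4% of the summed signal in WT and 30.3% to 40.1% in rTg4510 libraries. The 186 genes above the 99th percentile of mean signal had a median log2 change of 0.47 at 6 months, and the 744 genes between the 95th and 99th percentile one of 0.25. Cx3cr1 and Sparc are above the 99th percentile of mean signal, Selplg is at it, and Tmem119 and Gpr34 are between the 95th and the 99th.

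After quantile normalization, which gives every library the same distribution of signals, the median change of the 8 members was -0.56, -0.93, -1.01 and -1.07 at the 4 ages, and the number of DEGs was 2, 5, 7 and 7 of 8, where 0.533%, 4.84%, 8.3% and 6.78% of all genes were called lower and 1.15%, 8.84%, 10.7% and 10.4% higher. Cx3cr1 was then a DEG at 4, 6 and 8 months (-0.99, -1.04 and -0.94) and Sparc at 6 and 8 months (-0.95 and -1.06). The change of Sparc at 4 months went from 0.00 to -0.54 (limma FDR 4e-04), still short of 1.5 fold. Crybb1, of lower signal, moved little, from -1.55 to -1.60 at 6 months, and Selplg went from -0.90 to -1.43, so that these 2 no longer differed over 4, 6 and 8 months (difference 0.0729, exact permutation adjusted p = 0.341). Olfml3 remained uncalled at every age, with -0.36 at 6 months.

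**Figure D3:**
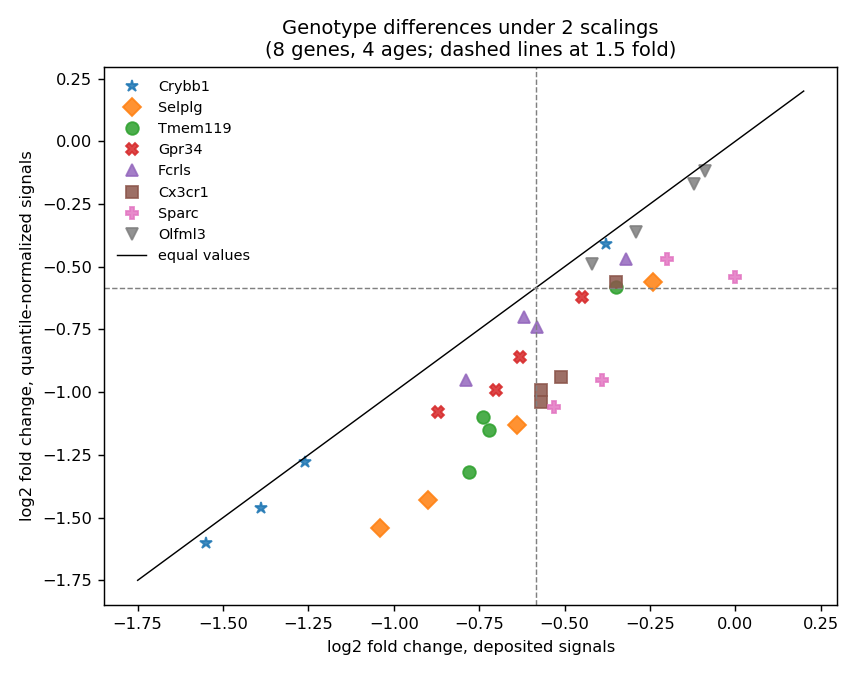
Log2 fold change of rTg4510 over WT for each gene at each of the 4 ages, from the deposited signals (horizontal axis) and after quantile normalization (vertical axis), with the line of equal values and dashed lines at 1.5 fold. Most points lie below the line, those of Crybb1 and Olfml3 close to it and those of Sparc, Selplg, Cx3cr1 and Tmem119 farthest from it.

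The members also varied together within groups. Over the 28 libraries the log2 signals of the 28 pairs of members correlated with a median r of 0.867 (0.661 to 0.956), which includes the genotype difference that they share. After the group means were taken out, the median r was 0.53 (0.132 to 0.79), and it was above 0 for 28 of 28 pairs. The median residual r of a member with all other genes was 0.011 to 0.0448. Crybb1 followed the others least (median residual r 0.176) and Selplg most (0.621). These values are given as a description, and what made the members vary together between libraries of a group was not tested.

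In 4 of the 28 libraries all 8 members lay below their group means (replicate 1 of both genotypes at 2 months, WT replicate 4 at 4 months and WT replicate 2 at 8 months), and in 2 all 8 lay above (WT replicate 3 at 2 and at 8 months). The mean deviation over the members reached -0.173 in WT replicate 1 at 2 months and 0.173 in WT replicate 3 at 8 months, both smaller than the median genotype difference at any age.

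**Figure D4:**
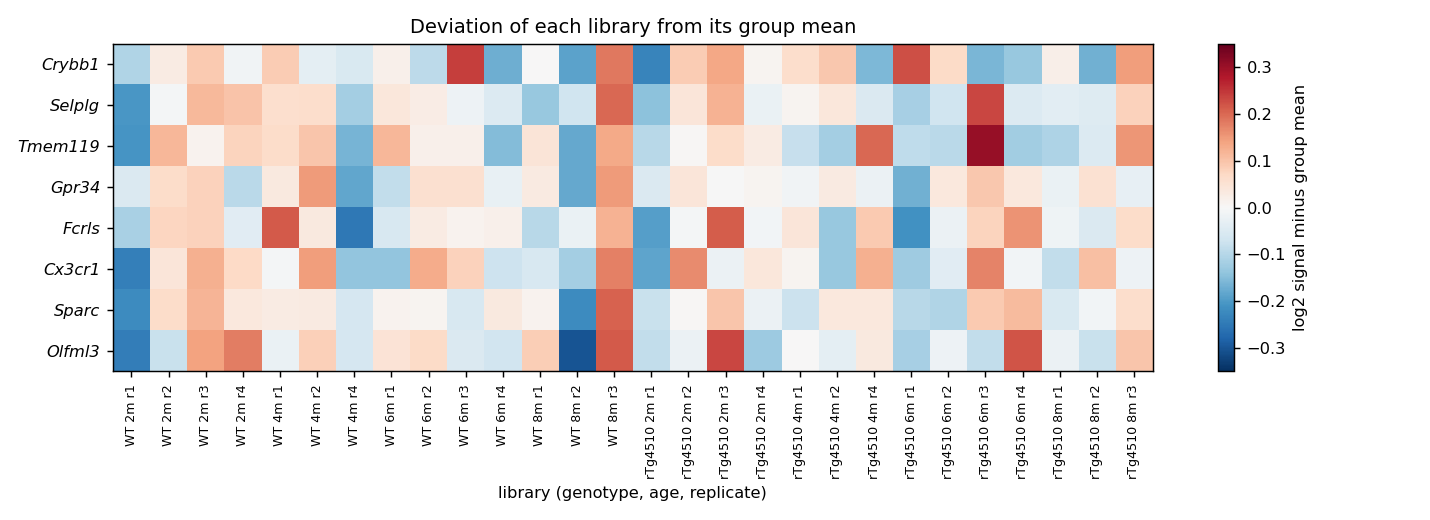
Deviation of the log2 signal from the group mean (colour, -0.35 to 0.35) of each of the 8 genes (rows) in each of the 28 libraries (columns, by genotype, age and replicate). WT replicate 1 of 2 months is below its group mean in every row and WT replicate 3 of 8 months above it.

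The genes whose signals followed the mean of the 8 members most closely over the 28 libraries were Sting1 (r = 0.98), Cd164 (0.979), Adgrg1 (0.975), Gpr165 (0.969) and Fchsd2 (0.968). Sting1 encodes an adaptor of DNA sensing and Adgrg1 the adhesion receptor GPR56, and both also stood in the list of other homeostatic genes. At 6 months the log2 change was -0.65 for Sting1 (limma FDR 2.19e-07), -0.94 for Adgrg1 (7.31e-09), -1.20 for Cd164 (1.26e-10) and -3.21 for Gpr165 (1.22e-12). The closest gene to each single member was Sting1 for Tmem119 (r = 0.956), Tmem119 for Cx3cr1 (0.953), Adgrg1 for Selplg (0.967), Ncaph for Fcrls (0.932), Rnase4 for Olfml3 (0.899), Arsb for Sparc (0.953), Bank1 for Crybb1 (0.98) and Cd164 for Gpr34 (0.971).

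Other homeostatic genes did not move as 1 block. Of 40 further genes of the homeostatic state, 2 fell and 1 rose at 2 months, 8 fell and 4 rose at 4 months, 11 fell and 6 rose at 6 months and 9 fell and 5 rose at 8 months, where 1.58%, 9.47%, 11.3% and 10.5% of all genes were called higher. Their median log2 change at 6 months was -0.39. After quantile normalization 20 fell and 2 rose at 6 months. The largest falls at 6 months were those of Upk1b, a uroplakin (-3.08, limma FDR 6.58e-12), Ecscr (-2.45, FDR 4.32e-13) and the fructose transporter gene Slc2a5 (-2.11, FDR 2.71e-10).

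Genes of the same list that rose at 6 months included Lag3 (1.67, limma FDR 1.66e-12), an immune checkpoint receptor gene, and the complement gene C1qb (0.79, FDR 3.8e-07). After quantile normalization Lag3 (1.47) was a DEG and C1qb (0.31) was not. P2ry12 (-0.30, limma FDR 0.019) and Csf1r (-0.13, FDR 0.0965), both classical microglia markers, were not DEGs at 6 months in the deposited signals. After quantile normalization P2ry12 (-0.70) and Csf1r (-0.71) were DEGs.

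**Figure D5:**
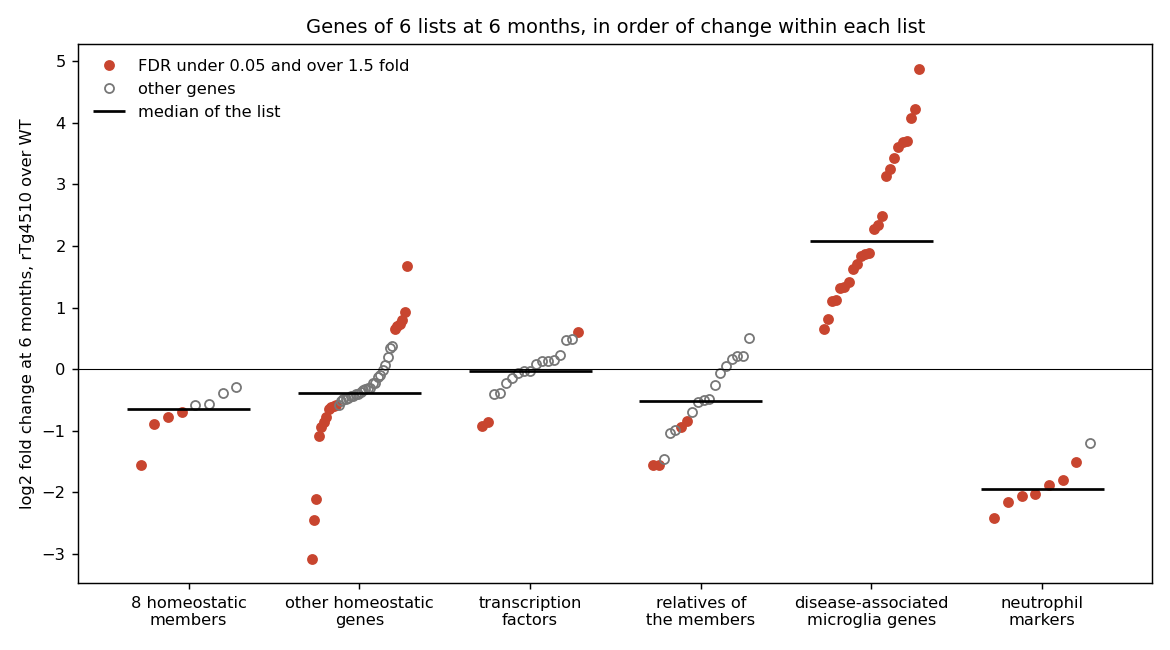
Log2 fold change of rTg4510 over WT at 6 months (vertical axis) for the genes of 6 lists, each in order of change, with DEGs filled, other genes open and the median of the list as a line. The median of the 8 members is -0.64, that of the 40 other homeostatic genes -0.39 and that of the 24 disease-associated microglia genes 2.08.

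Among 17 transcription factors of the microglial state, Sall1 and Maf fell at 4, 6 and 8 months and no other fell at any age. Of all genes, 4.33%, 8.54% and 5.37% were called lower at 4, 6 and 8 months. So short a list cannot show whether these factors fell more often than other genes. Sall1, which maintains microglial identity, changed by -0.77, -0.86 and -0.81 (limma FDR 2.78e-05, 5.52e-07 and 1.09e-05), and Maf by -0.73, -0.92 and -0.88 (FDR 2.14e-04, 1.26e-06 and 1.97e-05). Irf8 rose at 6 months (0.61, FDR 9.47e-05), a call that quantile normalization removed (0.52). Spi1, which encodes PU.1 and is named here after its values were seen, was not a DEG at any age (0.13, limma FDR 0.267 at 6 months). The median log2 change of the 17 was -0.03 at 6 months.

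Of 15 measured ligands and enzymes that act on the member receptors, 0 were DEGs by limma at 2, 4 and 8 months. At 6 months 1 rose and 1 fell, where 11.3% of all genes were called higher and 8.54% lower. A list this short cannot show whether these genes moved less often than others. The gene that rose was Fut7 (1.82, limma FDR 0.026), whose product adds the fucose that lets PSGL-1 bind selectins. Cx3cl1, the ligand of Cx3cr1 made by neurons, had a log2 change of -1.15 (limma FDR 0.0987) at 6 months with wide spread (SE 0.523). Of 18 measured relatives of the members, 0, 4, 4 and 4 fell at 2, 4, 6 and 8 months and 0 rose. Besides Fcrl1 these included Cryba4, a crystallin gene like Crybb1, with -0.64 at 4 months (limma FDR 0.00692) and -0.69 at 8 months (FDR 0.00339).

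Genes of the disease-associated microglia state moved the other way in the same libraries. Of 24 such genes, 12 rose at 2 months, 24 at 4 and at 6 months and 23 at 8 months, and their median log2 change went from 0.62 at 2 months to 2.20, 2.08 and 2.08. Over all genes, 1.58%, 9.47%, 11.3% and 10.5% were called higher at 2, 4, 6 and 8 months. After quantile normalization 10, 21, 22 and 22 of the 24 rose at these ages. Cst7, which encodes a cystatin, rose by 4.88 (limma FDR 3.36e-13) at 6 months. The genotype difference of all 24 grew from 2 to 4 months by the interaction test, where 3.77% of all genes were called in that direction.

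The summed markers of some other cells were apart between genotypes at 6 months, and those of others overlapped. At that age 8.54% of all genes were called lower and 11.3% higher. At 6 months the summed signal of 7 astrocyte markers was 9.50 to 9.79 in rTg4510 and 10.22 to 10.46 in WT, with 2 lower and 1 higher (Gfap, 1.52, limma FDR 4.3e-04). Log2 changes of the other astrocyte markers were 0.57 (Aldh1l1), -0.43 (Gja1), -0.66 (Slc1a3), -0.79 (Slc4a4), -0.88 (Slc1a2) and -1.22 (Aqp4). The astrocyte sum thus does not stand for each of its markers. The 8 border macrophage markers summed to 10.48 to 10.84 against 10.79 to 11.30 with 2 lower, and the 8 oligodendrocyte markers to 7.49 to 8.03 against 8.20 to 8.62 with 0 DEGs by limma at any age. The 4 neuron markers summed to 5.12 to 6.07 against 6.05 to 6.58, with 1 lower. The 6 monocyte markers summed to 7.47 to 8.35 in rTg4510 and 7.53 to 7.88 in WT at 6 months (3 lower and 2 higher) and to 8.20 to 8.35 against 7.59 to 8.13 at 8 months (1 higher). The summed microglia-defining markers were 14.78 to 14.95 in rTg4510 and 14.41 to 14.48 in WT at 6 months. Of these 10 markers 4 were higher and 1 was lower (Itgam, -0.62). After quantile normalization 1 was higher and 3 were lower, so the sum does not stand for each marker. The part of these markers in the results of the 8 members was not tested.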

How the data were processed

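RNAseq had been done on CD11b-captured forebrain microglia in 32 libraries. Deposited were gene signals on the log2 scale, for which the authors summed exon reads over runs, removed exons with few counts, fitted the exons of a gene by a robust linear model, and set all libraries to a common median. The processing notes name the genome build (GRCm38), and the aligner is not given in the sources used here. No read totals were used, so the number of libraries limits the precision.

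Computed here, with limma 3.58.1 in R 4.3.3 and with Python 3.11.15, were a linear model of the 8 group means per gene with unmoderated variances (20 residual degrees of freedom), contrasts of genotype, age and their interaction, and Benjamini-Hochberg FDR per contrast over all 18588 genes. DEGs needed an FDR under 0.05 and over 1.5 fold. The model was tested on simulated data. Of the Entrez numbers, 95.9% had a RefSeq symbol. Pairs of members were compared by exact permutation within age over 4, 6 and 8 months.

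The members, the gene lists and the ages of the pair test were chosen with earlier results of these data known. Named genes were the members, their neighbours, at most 4 of the largest changes of each list at 6 months, ligands, relatives and defining markers, and the genes that correlate best with the members. Alternatives were quantile normalization, a filter on low signals, moderated variances, all 32 libraries, the 2 groups of an age alone, a replicate block and leaving out each library.

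Labels give both genotypes the same replicate numbers. Deviations of same-numbered libraries from their group means were correlated over genes. Pearson r lay between 0.131 and 0.153 at 6 months and between 0.15 and 0.291 at 8 months. It was not always above 0.1 at 2 months (0.0649 to 0.167) and 4 months (-0.0999 to 0.124). Libraries of different numbers reached 0.0816 at 2 months, 0.154 at 4 months, 0.0913 at 6 months and -0.0281 at 8 months. From the values alone, the numbers looked like pairs at 6 and 8 months and did not at 4 months. At 2 months every WT library correlated best with the rTg4510 library of its own number, though the 2 ranges overlapped. The main fit and the permutation test of member pairs used no pairing of libraries. The replicate block, an alternative fit, paired same-numbered libraries at all 4 ages. Values of some genes of these lists are not reported here.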

Additional observations from a re-analysis of the deposited data

Results flagged for a closer look

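Of 32 sets of 4 libraries (8 members, both genotypes, 2 and 6 months), 1 held a library far from the other 3, and chance gives about 1 in 20. It was Tmem119 at 6 months, where rTg4510 replicate 3 had a log2 signal of 11.28 and the other 3 libraries lay between 10.86 and 10.89. The gap took 0.921 of the range, above the critical value of 0.829. That library was also high for Selplg (11.82) and Cx3cr1 (13.51), and it stayed below every WT library of 6 months for all 3 genes.

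The genotype difference of Crybb1 differed between ages, with an interaction of -0.88 on the log2 scale, 4 months minus 2 months (limma, SE 0.164, FDR 0.0019). It was the only 1 of 32 interactions tested for the members that passed.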

How the results depend on the processing

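Under quantile normalization the number of members called lower was 2 at 2 months and 7 at 6 months, 3 members were called between 2 and 4 months in rTg4510, the other homeostatic genes called lower were 15, 20 and 17 and those called higher 2, 2 and 1 at 4, 6 and 8 months, Sparc at 4 months turned to -0.537, and the pair differences turned to -0.0128 (Cx3cr1 against Gpr34) and 0.13 (Fcrls against Sparc). With all 32 libraries 2 members were called lower at 4 months (Selplg -0.382 and Gpr34 -0.51 lost their calls), and Olfml3 at 4 months turned to 0.0523. In that setting 6 pairs of members lost their call. They were Tmem119 with Fcrls, Selplg with Fcrls, Selplg with Gpr34, Fcrls with Gpr34, Cx3cr1 with Gpr34 and Cx3cr1 with Olfml3. With these 32 libraries 2 members were called in rTg4510 between 2 and 4 months and 1 between 4 and 6 months. The other homeostatic genes then had 1 lower at 2 months and 3 higher at 8 months. The rTg4510 library of 4 months that failed QC had 12.70 for Selplg and 13.33 for Sparc, above the 3 kept ones. Of the other homeostatic genes 1 was lower at 2 months with the signal filter, and 1 at 2 months and 5 at 4 months with only the 2 groups of the age. Leaving out single libraries gave between 0 and 1 members lower at the age of 2 months, between 3 and 5 at 4, between 4 and 6 at 6 and between 5 and 6 at 8 months, 1 to 2 called in rTg4510 between 2 and 4 months, 0 to 1 for the interaction of 4 and 8 months, and -0.0282 to 0.0391 for Sparc at 4 months. Gpr34 lost its call at 4 months without WT replicate 2 (-0.555), and Fcrls its call between 2 and 8 months in rTg4510 without replicate 3 of 2 months (-0.581). The cause of these moves was not tested beyond the change of scale or libraries itself.

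The fit with a replicate block gave 1, 4, 4 and 5 members lower at the 4 ages and changed no call of a member; the age comparisons could not be fitted with it. Moderated variances changed no member's call between genotypes. No read totals were available for use here, so precision rests on 3 or 4 libraries per group.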
